A study of Homo sapiens with 4 samples.

Results

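The genes described here encode the protein subunits of the human mitochondrial ribosome, named MRPS for the small subunit and MRPL for the large subunit. They were taken as the protein-coding genes of GENCODE release 29 whose names begin with MRPL or MRPS followed by a digit. This rule found 78 of the 58735 genes in the tables, or 78 of 19951 protein-coding genes, of which 29 carry MRPS names and 49 carry MRPL names. No measured value entered the choice, but the set was proposed with earlier results of these data known.

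Mitochondria keep a ribosome of their own, which makes the few proteins encoded in mitochondrial DNA, nearly all of them subunits of the respiratory chain and the ATP synthase. Its rRNAs are transcribed inside the organelle, while every protein subunit is encoded in the nucleus, made in the cytosol and imported. The small subunit binds the mRNA and decodes it. The large subunit joins the amino acids and is attached to the inner membrane, where its products are inserted. The names do not follow the structure in every case: in mammalian structures MRPS18A and MRPS30 sit in the large subunit, and MRPS36 has been reassigned to the oxoglutarate dehydrogenase complex.

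RNA-seq was available from 4 libraries labelled Huh7, a cell line from a human liver cancer. 2 libraries, shNME7 1 and 2, came from cells with a short hairpin RNA against NME7, a nucleoside diphosphate kinase family member found at the gamma-tubulin ring complex. The other 2, shCtrl 1 and 2, came from cells with a control hairpin. No dose, time or clone is given for either hairpin, and no label says that the replicates were separate cultures, so p-values here reflect nothing beyond how these 4 samples vary, possibly for technical reasons. Values are FPKM, fragments scaled to exon length and to a size per library. That size was not the fragment total but 1 that centres the typical gene, as described under processing. This scaling holds the typical gene's difference near 0, which the medians over all tested genes below reflect. Levels can be set side by side between genes, with the limit that all annotated exons enter the length.

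The libraries held 14877906 and 16991397 fragments in shNME7 1 and 2 and 15865321 and 16050268 in shCtrl 1 and 2, recovered from the FPKM values. The targeted gene matched the labels: NME7 had 0.835 and 0.626 FPKM in shNME7 1 and 2, against 3.64 and 3.93 FPKM in shCtrl 1 and 2. Limma-trend put this at -1.47 ± 0.171 (SE), on the log2(FPKM + 1) scale, at adjusted p 0.3098. Limma-voom on the recovered fragments put it at -2.39 on the log2 scale, at adjusted p 0.000998. The pseudocount of 1 shrinks the first of these values at so low a level. Markers of the labelled cell type were close to absent. The 10 hepatocyte markers, among them ALB, AFP and APOA1, summed to 0.110 and 0.0858 FPKM in shNME7 1 and 2 and to 0.0564 and 0.106 FPKM in shCtrl 1 and 2, and 7 or 8 of them were at 0 in each library. A count of 0 allows up to 3 fragments, or between 0.177 and 0.202 CPM (fragments scaled to library size), counting error only. The 6 fibroblast markers summed to 98.7 and 97.3 FPKM in shNME7 and to 103 and 92.1 FPKM in shCtrl, mostly COL3A1, with COL1A2 at or near 0, and the leukocyte markers summed to at most 0.277 FPKM. The 5 endothelial markers, mostly CDH5, summed to 2.87 and 3.54 FPKM in shNME7 and to 2.37 and 2.03 FPKM in shCtrl. The data therefore go against the label as far as these markers reach, and the libraries are called by their hairpins below. Transcripts of the mitochondrial genome took 6.59% and 4.24% of the fragments in shNME7 1 and 2 and 4.76% and 5.92% in shCtrl 1 and 2. Their part in the results below was not tested.

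All 78 genes had fragments in every library, with between 25 and 4175 fragments per gene and library. Summed over the 29 small subunit genes, the level was 859.6 and 973 FPKM in shNME7 1 and 2, against 853 and 758 FPKM in shCtrl 1 and 2. The 49 large subunit genes summed to 1352 and 1592 FPKM in shNME7 1 and 2, against 1342 and 1185 FPKM in shCtrl 1 and 2. In both subunits shNME7 2 held the highest sum and shCtrl 2 the lowest, while shNME7 1 and shCtrl 1 were close. As group means the small subunit came to 916 ± 80.4 FPKM in shNME7 and 806 ± 67.6 FPKM in shCtrl, and the large subunit to 1472 ± 170 FPKM in shNME7 and 1263 ± 111 FPKM in shCtrl (SD, n = 2 each). The 84 proteins of the cytosolic ribosome had the same order of libraries, with 18429 and 21529 FPKM in shNME7 and 18492 and 15858 FPKM in shCtrl.

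Single subunits differed widely in FPKM although the ribosome holds nearly all of them once. The middle gene of the small subunit had a mean of 21.8 FPKM over the 4 libraries and that of the large subunit 21.5 FPKM. Among small subunit genes MRPS34 (mean 136 FPKM), MRPS18B (127 FPKM) and MRPS26 (55.1 FPKM) were the most abundant, and among large subunit genes MRPL14 (82.7 FPKM), MRPL24 (72.6 FPKM) and MRPL15 (64.8 FPKM). At the low end stood MRPS24 with a mean of 0.724 FPKM and MRPL38 with 0.970 FPKM, both under the minimum mean of 1 FPKM that the test required, which left 28 small and 48 large subunit genes for it. MRPS18A, MRPS18B and MRPS18C, which are 3 separate relatives of 1 bacterial protein, had means of 26.8, 127 and 2.76 FPKM. FPKM divides by all annotated exon bases of a gene, so this length enters the level. It was 1097 bases for MRPS34, 1127 for MRPS26 and 959 for MRPL14. It was 6432 for MRPL46 (mean 1.79 FPKM), 4866 for MRPS18C and 2613 for MRPS24. Not every gene followed this, as MRPL53 (mean 3.57 FPKM) had 1344 bases. The part of exon length in these levels was not tested.

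Some of these levels are also uncertain because the gene's exons are shared. The annotation places exons of other genes over 68.2% of the exon bases of MRPL12, 47.0% of MRPS18A, 45.2% of MRPL53, 41.1% of MRPL38, 40.2% of MRPS18C, 35.8% of MRPS28 and 23.2% of MRPS24. The overlapping gene with the largest share was listed at 0 in all libraries for MRPL12 and for MRPS28, while CCDC142, which overlaps MRPL53, had 3.33 and 4.45 FPKM in shNME7 and 3.63 and 2.63 FPKM in shCtrl. Neither the counting tool nor its use of strand is given in the sources used here, so fragments lost to or gained from such neighbours cannot be told apart from a true level. The median level was 24.5 FPKM in the 52 genes with under 10% overlap and 19.0 FPKM in the 25 with 10% to 50%, and over all 78 genes overlap and level had a Spearman rho of -0.26, a description across genes of the same libraries. Pseudogenes are another source: 34 members have 75 pseudogenes named after them. These took 11.3% of the fragments of gene and pseudogenes together for MRPS31, 9.94% for MRPL45 and less for every other member.

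**Figure D1:**
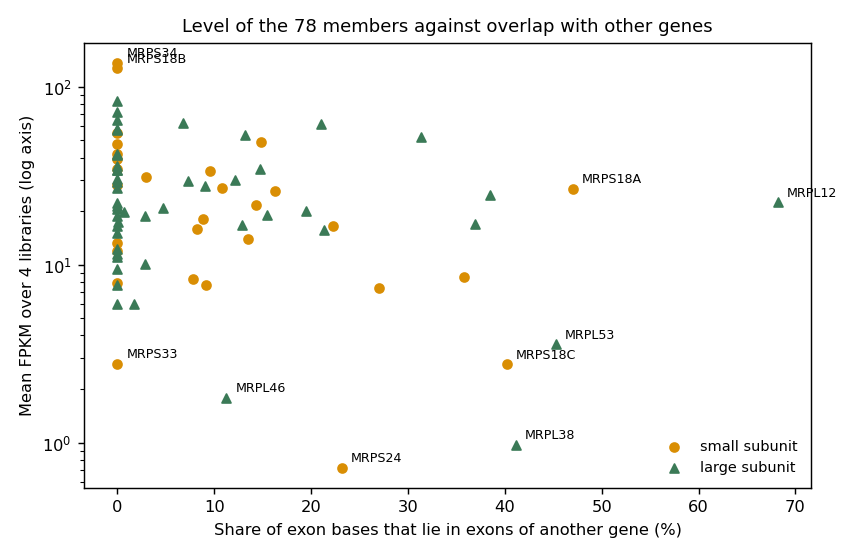
Mean FPKM over the 4 libraries (vertical, log axis) against the share of exon bases that other genes' exons cover (horizontal, percent), 1 point per gene, circles for the small and triangles for the large subunit. MRPS34 and MRPS18B stand at the top with no overlap, and MRPL38 and MRPS24, both overlapped by other genes, at the bottom.

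The comparison of knockdown with control cells asked how subunit mRNAs differ when NME7 is lowered. No subunit gene passed an adjusted p of 0.05 (Benjamini-Hochberg over all genes tested), in limma-trend on log2(FPKM + 1) or in limma-voom. Across the whole table limma-trend called 0 of 12866 genes, or 0%, with 859 genes (6.68%) at an unadjusted p under 0.05, and limma-voom called 16 of 15112 genes (0.106%), none of them a subunit gene. The smallest adjusted p of any member was 0.728 in limma-trend and 0.494 in limma-voom. At an unadjusted p under 0.05 limma-trend placed 4 members, all with a higher mean in shNME7 where 3.46% of all tested genes had such a p and direction: MRPL23, MRPL27, MRPS28 and MRPL33, the last outside the rule for named genes and named here after its values were seen. In limma-voom 8 of 78 members had an unadjusted p under 0.05, all with a higher mean in shNME7. Of all 15112 genes, 595 had such a p and direction. In bulk RNA, fewer cells of a type and less RNA per cell cannot be told apart.

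Most members nevertheless had the higher mean in shNME7. This held for 22 of 28 small subunit genes, 42 of 48 large subunit genes and 64 of 76 in all, where 52.2% of all tested genes did so. The median difference, shNME7 minus shCtrl, was 0.13 on the log2 scale for the small subunit, 0.21 for the large subunit and 0.012 for all tested genes, so the small subunit's median lay 0.073 under the large one's. The 80 tested cytosolic ribosomal protein genes had a median of 0.20, with 76 of 80 higher, so the direction was shared with the other ribosome. By the stricter count that both shNME7 values exceed both shCtrl values, 10 of 28 small and 18 of 48 large subunit genes qualified, against 17.8% of all tested genes. The reverse, both shNME7 values under both shCtrl values, held for 2 small and 2 large subunit genes, against 18.4% of all tested genes. A pseudocount of 1 shrinks the differences of scarce genes.

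The shNME7 replicates of the large subunit were as far apart as the groups. For this subunit, shNME7 1 minus shNME7 2 had a median of -0.21 on the log2 scale and shCtrl 1 minus shCtrl 2 a median of 0.13, beside the group difference of 0.21. For the small subunit the replicate differences had medians of -0.026 and 0.052, beside a group difference of 0.13. Of the 76 tested members, 50 were highest in shNME7 2 and 47 lowest in shCtrl 2. Comparing shNME7 1 with shCtrl 1 alone gave medians of 0.053 for the small and 0.0049 for the large subunit. Comparing shNME7 2 with shCtrl 2 gave 0.17 and 0.38. As no label ties equal replicate numbers together, the crossed comparisons count alike. They gave 0.13 and 0.15 for shNME7 1 with shCtrl 2, and 0.11 and 0.22 for shNME7 2 with shCtrl 1.

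In 3 of the 5 large subunit genes with the largest positive differences, the groups overlapped, with shNME7 2 the highest library and shCtrl 2 the lowest (coordinates here and below are GRCh38). MRPL12 (chr17:81703357-81707526, plus strand), the stalk protein that recruits translation factors, had 19.5 and 36.5 FPKM in shNME7 1 and 2, against 21.8 and 11.8 FPKM in shCtrl 1 and 2. Only shNME7 2 lay above the control libraries, and shNME7 1 lay below shCtrl 1. Limma-trend put the difference at 0.70 ± 0.363 (SE), adjusted p 0.795. MRPL41 (chr9:137551199-137552555, plus strand), a subunit with no bacterial counterpart, had 30.1 and 53.2 FPKM in shNME7 1 and 2, against 32.7 and 19.7 FPKM in shCtrl 1 and 2, in the same order of libraries, and a difference of 0.63 ± 0.327 (SE). MRPL54, also found only in mitochondria, had 19.5 and 29.5 FPKM in shNME7 1 and 2, against 20.3 and 13.5 FPKM in shCtrl 1 and 2, with shNME7 1 between the control libraries and a difference of 0.51 ± 0.259 (SE).

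In MRPL23 and MRPL27 the groups did not overlap. MRPL23 (chr11:1947278-1984522, plus strand), whose bacterial relative sits at the exit of the peptide tunnel, had 12.03 and 12.1 FPKM in shNME7 1 and 2, against 9.19 and 7.09 FPKM in shCtrl 1 and 2. The shNME7 libraries were nearly equal and both exceeded both control libraries, with a difference of 0.53 ± 0.159 (SE) and an adjusted p of 0.728. MRPL27 (chr17:50367857-50373214, minus strand), related to the bacterial protein that reaches towards the peptidyl transferase centre, had 15.7 and 19.4 FPKM in shNME7 1 and 2, against 13.02 and 12.02 FPKM in shCtrl 1 and 2, a difference of 0.45 ± 0.154 (SE) and an adjusted p of 0.728. Both adjusted p-values are limma-trend's and miss the threshold.

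The most negative large subunit genes had small differences. MRPL30 had 19.8 and 17.4 FPKM in shNME7 1 and 2, against 20.1 and 22.8 FPKM in shCtrl 1 and 2, so both shNME7 libraries lay below both controls, with a difference of -0.20 ± 0.147 (SE). MRPL45, which helps to hold the ribosome at the inner membrane, had 61.7 and 49.9 FPKM in shNME7 1 and 2, against 57.6 and 59.6 FPKM in shCtrl 1 and 2, with only shNME7 2 below the controls and a difference of -0.077. MRPL44 had 16.1 and 16.3 FPKM in shNME7 1 and 2, against 17.04 and 17.1 FPKM in shCtrl 1 and 2, tight within each group and lower in shNME7 by a difference of -0.072. None of the 3 passed the test.

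Of the 3 most abundant large subunit genes, MRPL14 and MRPL24 had unequal shNME7 libraries. MRPL14 had 76.2 and 112 FPKM in shNME7 1 and 2, against 78.4 and 64.5 FPKM in shCtrl 1 and 2, a difference of 0.37. MRPL24, like MRPL23 a neighbour of the tunnel exit in bacteria, had 73.7 and 86.1 FPKM in shNME7 1 and 2, against 74.1 and 56.6 FPKM in shCtrl 1 and 2, a difference of 0.29. In both genes shNME7 1 lay just under shCtrl 1, while shNME7 2 was the highest library. MRPL15 varied less, with 61.1 and 72.1 FPKM in shNME7 1 and 2, against 65.01 and 60.96 FPKM in shCtrl 1 and 2 and a difference of 0.075. At the low end MRPL46 had 1.81 and 2.26 FPKM in shNME7, against 1.78 and 1.31 FPKM in shCtrl. MRPL53 had 4.46 and 3.64 FPKM in shNME7, against 2.899 and 3.28 FPKM in shCtrl. MRPL1, a protein of the tRNA exit stalk, had 6.57 and 5.36 FPKM in shNME7, against 5.498 and 6.64 FPKM in shCtrl. The groups did not overlap in MRPL46 and MRPL53 and did in MRPL1. MRPL58, a release factor relative built into the large subunit that frees stalled peptides, had 37.2 and 48.1 FPKM in shNME7 1 and 2, against 44.3 and 36.2 FPKM in shCtrl 1 and 2, with the groups overlapping and a difference of 0.077.

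Among small subunit genes the largest difference was in MRPS28 (chr8:79918717-80030289, minus strand), which had 8.57 and 12.6 FPKM in shNME7 1 and 2, against 6.502 and 6.41 FPKM in shCtrl 1 and 2. The control libraries were nearly equal and both shNME7 libraries exceeded them, with a difference of 0.61 ± 0.192 (SE) and a limma-trend adjusted p of 0.728. MRPS26 had 50.5 and 79.4 FPKM in shNME7 1 and 2, against 56.2 and 34.5 FPKM in shCtrl 1 and 2, and MRPS34 (chr16:1771890-1773155, minus strand), needed for a stable small subunit in mice, had 122 and 197 FPKM in shNME7 1 and 2, against 137 and 89.7 FPKM in shCtrl 1 and 2. In both, shNME7 1 lay between the control libraries and shNME7 2 was far above them, with differences of 0.51 ± 0.296 (SE) and 0.48 ± 0.291 (SE). MRPS21 had 44.2 and 49.8 FPKM in shNME7 1 and 2, against 40.1 and 33.9 FPKM in shCtrl 1 and 2, without overlap, and a difference of 0.34 ± 0.154 (SE). MRPS18A, a large subunit protein by structure, had 25.03 and 34.5 FPKM in shNME7 1 and 2, against 25.5 and 22.1 FPKM in shCtrl 1 and 2 and a difference of 0.29 ± 0.189 (SE), with shNME7 1 between the controls.

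MRPS10 (chr6:42206801-42217865, minus strand), related to a protein of the bacterial small subunit head, had its lower mean in shNME7, with 44.1 and 41.4 FPKM in shNME7 1 and 2, against 48.7 and 57.4 FPKM in shCtrl 1 and 2. Both shNME7 libraries were below both controls, with a difference of -0.30 ± 0.149 (SE) that missed the threshold (limma-trend, adjusted p 0.795). MRPS27, a pentatricopeptide repeat protein that can bind RNA, had 30.5 and 28.9 FPKM in shNME7 1 and 2, against 32.4 and 33.3 FPKM in shCtrl 1 and 2, also without overlap, and a difference of -0.14. MRPS35 had 42.9 and 34.7 FPKM in shNME7 1 and 2, against 37.8 and 41.6 FPKM in shCtrl 1 and 2, with the groups overlapping and a difference of -0.038.

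The other MRPS genes named by the rule had smaller differences than the 5 most positive. MRPS12, at the decoding centre in its bacterial relative, had 23.2 and 33.3 FPKM in shNME7 1 and 2, against 26.97 and 19.95 FPKM in shCtrl 1 and 2 and a difference of 0.25. MRPS30 had 35.7 and 32.95 FPKM in shNME7, against 34.7 and 35.2 FPKM in shCtrl. The groups overlapped in both. MRPS18B had 134 and 130.2 FPKM in shNME7, against 128 and 116 FPKM in shCtrl. MRPS18C had 2.72 and 3.07 FPKM in shNME7, against 2.61 and 2.62 FPKM in shCtrl. Here the groups did not overlap, and the differences were 0.11 and 0.11. MRPS17 had 8.14 and 8.26 FPKM in shNME7, against 6.84 and 6.17 FPKM in shCtrl, without overlap, and MRPS33 had 3.12 and 2.53 FPKM in shNME7, against 2.66 and 2.82 FPKM in shCtrl, with overlap. MRPS6, named here after its values were seen, was the clearest case of a member high in the other shNME7 library, with 45.1 and 29.2 FPKM in shNME7 1 and 2, against 29.1 and 31.7 FPKM in shCtrl 1 and 2.

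**Figure D2:**
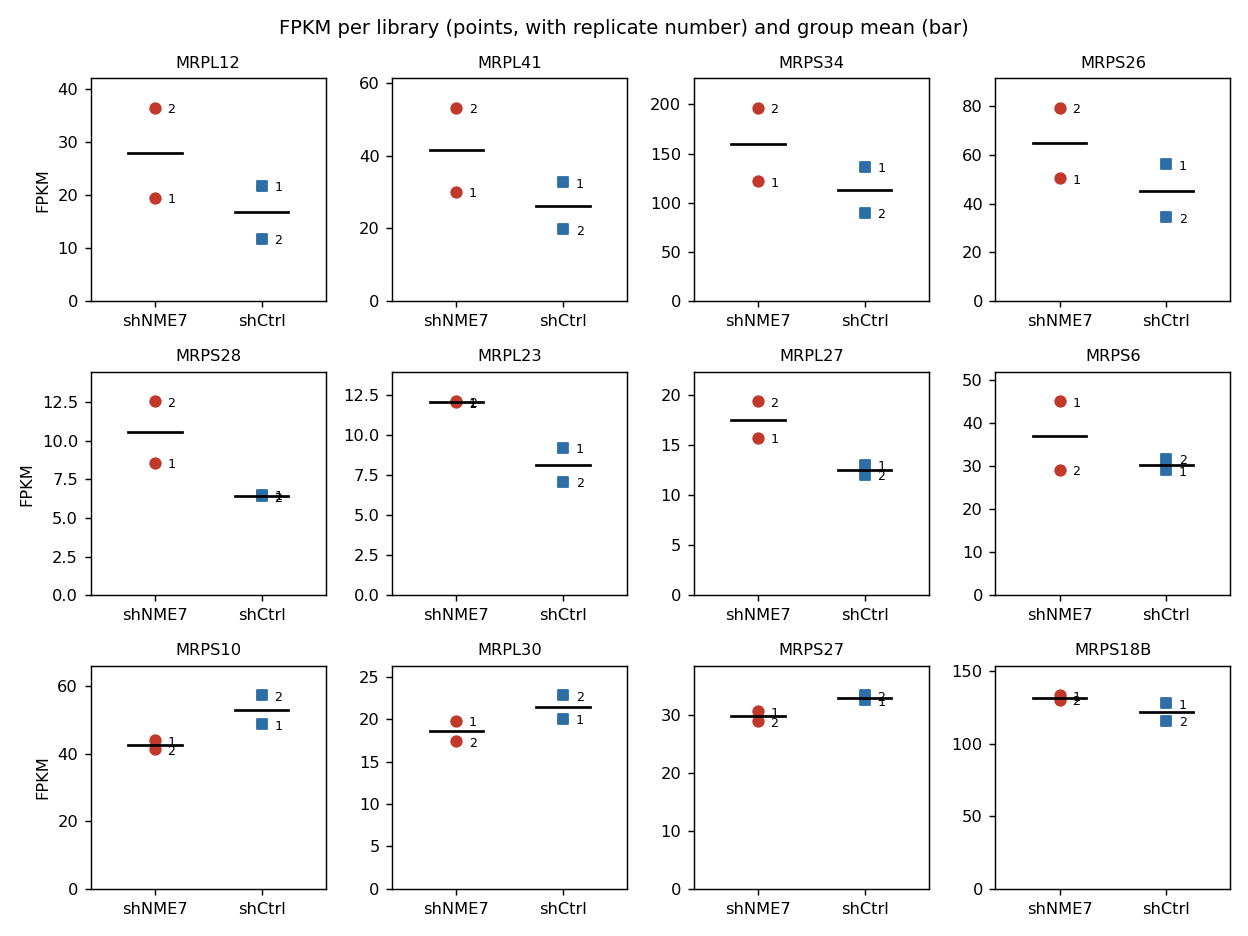
FPKM of 12 subunit genes (vertical axis from 0, own scale per panel), with shNME7 libraries as red circles left of shCtrl libraries as blue squares, replicate numbers beside the points and bars at group means. In MRPL12, MRPL41, MRPS34 and MRPS26 shNME7 2 stands alone at the top, in MRPS6 shNME7 1 does, and in MRPS28, MRPL23 and MRPL27 both shNME7 points lie above both shCtrl points.

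The order of libraries in a gene went with the base composition of its exons. Over the 76 tested members, GC content and the group difference had a Spearman rho of 0.56. GC content tracked the differences between replicates of a group more closely, with rho -0.72 for shNME7 1 minus shNME7 2 and 0.74 for shCtrl 1 minus shCtrl 2. Over all tested genes the values were 0.42, -0.66 and 0.63, so the relation was general to these libraries. Exon length was related to the group difference with rho -0.34 over the members and -0.27 over all tested genes. For shNME7 1 minus shNME7 2 the rho with length was 0.29 over the members and 0.063 over all tested genes. For shCtrl 1 minus shCtrl 2 it was -0.30 and -0.22. Length and GC content of the members were related to each other with rho -0.42. These are descriptions across genes that share the same 4 libraries. The large subunit genes had the higher GC content, with medians of 46.1% for the small and 50.1% for the large subunit, and exon lengths were close, with medians of 2529 and 2408 bases, both shorter than the median of 4393 bases over all tested genes.

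**Figure D3:**
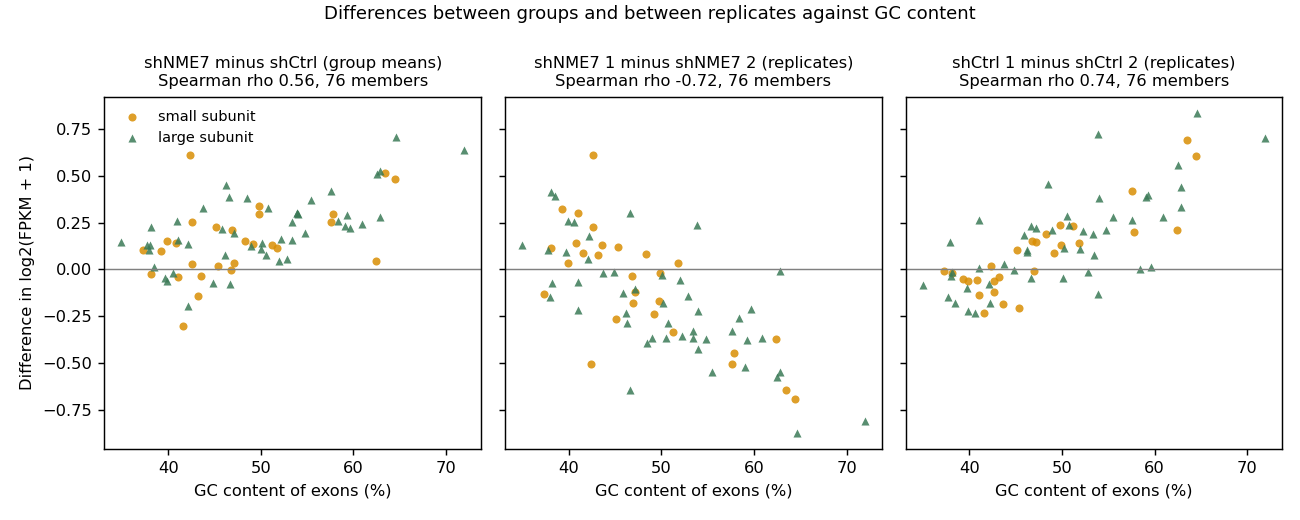
Difference in log2(FPKM + 1) against exon GC content (percent) for the 76 tested members, circles for the small and triangles for the large subunit, with shNME7 minus shCtrl on the left, the shNME7 replicates in the middle and the shCtrl replicates on the right. The replicate panels slope more steeply than the group panel, with rho -0.72 and 0.74 against 0.56.

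Members with GC content of 55% or more all had shNME7 2 as their highest library, 17 of 17, and 16 of the 17 had shCtrl 2 as their lowest. Over all 3554 tested genes of that GC class, 2482 had shNME7 2 as their highest library and 2312 had shCtrl 2 as their lowest. The members' median difference was 0.29, against 0.14 for all tested genes of the class. In the 32 members with GC content of 45% to 55% the median was 0.16, against 0.025 for all genes of the class. In the 27 members under 45% the median was 0.11, against -0.084 for all genes of the class, and here the highest library was shNME7 1 for 12 members, shNME7 2 for 7 and shCtrl 2 for 8. Over all 4862 genes of the class it was shNME7 1 for 1564, shNME7 2 for 323 and shCtrl 2 for 2618. In each class the members' median lay above that of all genes of like GC content, and among members the library most often highest was shNME7 1 in the lowest class and shNME7 2 in the others.

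The coding sequences at both ends of this range are shown to make the difference in composition visible. Each run is the middle 120 bases of the longest complete coding sequence in GENCODE release 29, 5′ to 3′, with G and C in capitals. The first 3 genes are among those highest in shNME7 2, and the last 3 have exons of low GC content.
MRPL41: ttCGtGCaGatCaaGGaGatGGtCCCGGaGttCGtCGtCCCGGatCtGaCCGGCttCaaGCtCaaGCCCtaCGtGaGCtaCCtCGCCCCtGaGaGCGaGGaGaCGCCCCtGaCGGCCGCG
MRPS34: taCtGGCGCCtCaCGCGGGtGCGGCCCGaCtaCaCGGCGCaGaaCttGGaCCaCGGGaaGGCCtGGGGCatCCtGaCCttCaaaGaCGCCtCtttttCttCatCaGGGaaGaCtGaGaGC
MRPL12: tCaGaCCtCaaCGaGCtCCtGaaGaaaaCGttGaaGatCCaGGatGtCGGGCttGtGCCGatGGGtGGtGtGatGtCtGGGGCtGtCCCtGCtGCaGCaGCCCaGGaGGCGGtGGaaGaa
MRPL50: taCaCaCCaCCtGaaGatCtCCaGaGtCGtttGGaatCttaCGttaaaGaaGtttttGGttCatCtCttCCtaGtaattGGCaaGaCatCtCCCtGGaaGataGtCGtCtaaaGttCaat
MRPS30: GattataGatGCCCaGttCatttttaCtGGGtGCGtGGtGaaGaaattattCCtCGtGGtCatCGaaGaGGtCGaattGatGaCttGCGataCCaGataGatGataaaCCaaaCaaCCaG
MRPS36: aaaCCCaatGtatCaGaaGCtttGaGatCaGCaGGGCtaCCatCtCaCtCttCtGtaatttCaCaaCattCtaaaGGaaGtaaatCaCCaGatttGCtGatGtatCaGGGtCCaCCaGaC
G and C made up 64.2%, 60.8% and 58.3% of the stretches of MRPL41, MRPS34 and MRPL12, and 40%, 41.7% and 41.7% of those of MRPL50, MRPS30 and MRPS36. Over all exons of the gene the shares were 71.9%, 64.4% and 64.6% for the first 3 and 34.96%, 38.1% and 39.9% for the last 3. MRPL50 had 12.7 and 11.5 FPKM in shNME7 1 and 2, against 10.5 and 11.1 FPKM in shCtrl 1 and 2, and MRPS36 had 14.2 and 13.8 FPKM in shNME7 1 and 2, against 12.2 and 12.8 FPKM in shCtrl 1 and 2. In both, the shNME7 libraries lay above both controls. MRPS30, the third of these AT-rich genes, had 35.7 and 32.95 FPKM in shNME7 1 and 2, against 34.7 and 35.2 FPKM in shCtrl 1 and 2, with the groups overlapping.

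**Figure D4:**
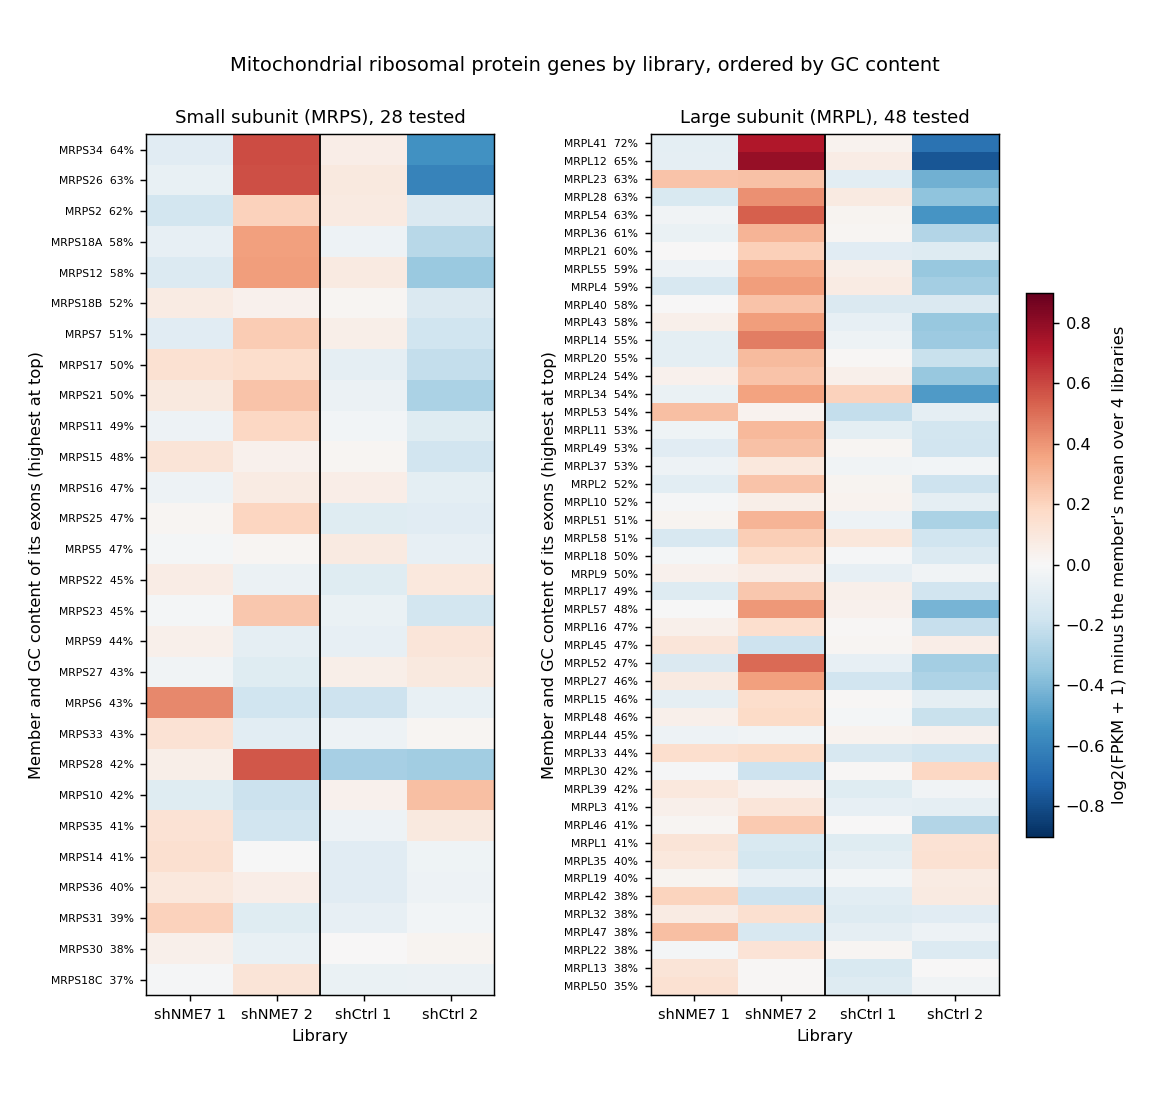
Each tested member's log2(FPKM + 1) minus its own mean over the 4 libraries (red higher, blue lower), with shNME7 columns left of shCtrl columns and members ordered by exon GC content, highest at the top. The 17 members of highest GC content are all reddest in shNME7 2, and that pattern fades towards the bottom, where shNME7 1 is more often the reddest column.

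With a smooth trend on GC content and on exon length over all tested genes removed from every library, the median difference was 0.14 for the small and 0.17 for the large subunit, against 0.024 for all tested genes and 0.18 for cytosolic ribosomal proteins. The small subunit's median then lay 0.036 under the large one's, against 0.073 before. The rho with GC content was 0.086. Means were higher in shNME7 for 23 of 28 small and 41 of 48 large subunit genes, against 55.8% of all tested genes, and 13 and 18 of them had both shNME7 values above both shCtrl values, against 26.6% of all tested genes. The replicates did not draw together for the large subunit: shNME7 1 minus shNME7 2 still had a median of -0.20, against -0.21 before. For shCtrl 1 minus shCtrl 2 the large subunit's median was 0.11, against 0.13 before. In the small subunit the replicates moved further apart. Its median was -0.14 for shNME7 1 minus shNME7 2, against -0.026 before, and 0.10 for shCtrl 1 minus shCtrl 2, against 0.052 before. These stood beside its group difference of 0.14. Limma-trend then called 0 of 12866 genes, or 0%, and limma-voom called 11 of 15112 (0.0728%), with no member among them. At an unadjusted p under 0.05 limma-trend placed 1679 genes (13%), 888 of them with a higher mean in shNME7. Among the 76 tested members 11 had such a p, 10 of them with a higher mean in shNME7.

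For single members the removal changed the differences unequally. The difference of MRPL12 came to 0.49 and that of MRPL41 to 0.38, against 0.70 and 0.63 before. For MRPS26 it was 0.31 and for MRPS34 0.27, against 0.51 and 0.48 before. MRPS28 stayed at 0.61, MRPL27 had 0.46, MRPL23 had 0.37 and MRPS10 had -0.29. MRPS28, whose exons are 42.4% G and C, thus had the largest difference of the tested members after the removal, at a limma-trend adjusted p of 0.378.

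**Figure D5:**
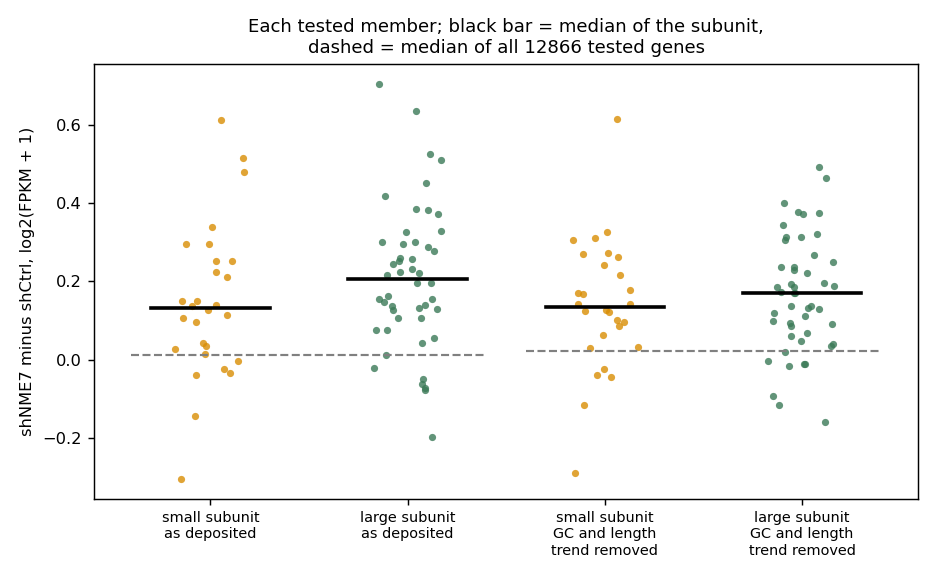
Difference, shNME7 minus shCtrl, in log2(FPKM + 1) for every tested member (points), small subunit left of large, first as deposited and then with the GC and length trend removed. Black bars at 0.13 and 0.21 and then at 0.14 and 0.17 are medians, and the dashed lines at 0.012 and 0.024 are the medians of all 12866 tested genes.

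Member calls changed with the library left out. Without shNME7 1, limma-trend called 632 genes (4.91%), and 7 members rose: MRPL12 with a difference of 1.14 and an adjusted p of 1.50e-05, MRPL41, MRPS28, MRPL54, MRPS26, MRPS34 and MRPL52, the last at an adjusted p of 0.0203 and outside the rule for named genes. Without shCtrl 1, 133 genes (1.03%) were called, and among members MRPL12 alone rose, with a difference of 1.12 and an adjusted p of 0.0342. No member was called without shNME7 2, where 277 genes (2.15%) passed, or without shCtrl 2, where 112 (0.871%) did. For the first 6 of these members the differences in those 2 fits were smaller than without shNME7 1. Without shNME7 2 they were 0.27 for MRPL12, 0.23 for MRPL41, 0.22 for MRPL54, 0.36 for MRPS28, 0.19 for MRPS26 and 0.14 for MRPS34. Without shCtrl 2 they were 0.29 for MRPL12, 0.28 for MRPL41, 0.23 for MRPL54, 0.60 for MRPS28, 0.17 for MRPS26 and 0.18 for MRPS34. Each of these fits leaves 1 library in a group and assumes that it varies like the other group. The medians for small and large subunits were 0.12 and 0.32 without shNME7 1 and 0.10 and 0.10 without shNME7 2. They were 0.17 and 0.26 without shCtrl 1 and 0.10 and 0.11 without shCtrl 2. With the GC and length trend removed as well, 0 genes were called in any of these fits by limma-trend.

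Subunit genes shared features of their promoters that the rule did not use. RefSeq promoters on GRCh38.p14, from 250 bases before to 50 after the start, were matched for 69 of the 78 members and searched on both strands for short motifs. Each member entered with the first promoter listed for it. The comparison sets count every listed promoter, 12295 where 10540 protein-coding genes were tested, so the shares are per gene on one side and per promoter on the other. The 69 include MRPS24 and MRPL38, which were not tested. CCGGAAG, the core bound by ETS factors such as GABP, was in 29 of 69 (42.0%), against 18.1% of 12295 promoters of tested protein-coding genes and 10.3% of all promoters in the table. ATGGCGG, the core of YY1 sites, was in 24 of 69 (34.8%), against 10.1% and 5.55%. TGCGCA, a core of the site for NRF1 (nuclear respiratory factor), was in 14 of 69 (20.3%), against 12.6% and 8.24%. CACGTG, the E-box bound by MYC, was in 6 of 69 (8.70%), against 9.74% and 7.26%. Neighbouring matches of different motifs may share end bases, as CACGTG and TGCGCA can. Small and large subunit promoters were alike for the ETS core, with 12 of 27 and 17 of 42. A match is a description of letters and not evidence of binding.

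The promoters of MRPL27, MRPS34 and MRPS10 are shown because they hold such matches while the genes' means differed in opposite directions. They lie at chr17:50373135-50373434, chr16:1773085-1773384 and chr6:42217812-42218111, all on the minus strand, and are written 5′ to 3′ in the direction of the gene, with ETS and YY1 cores on either strand in capitals.
MRPL27: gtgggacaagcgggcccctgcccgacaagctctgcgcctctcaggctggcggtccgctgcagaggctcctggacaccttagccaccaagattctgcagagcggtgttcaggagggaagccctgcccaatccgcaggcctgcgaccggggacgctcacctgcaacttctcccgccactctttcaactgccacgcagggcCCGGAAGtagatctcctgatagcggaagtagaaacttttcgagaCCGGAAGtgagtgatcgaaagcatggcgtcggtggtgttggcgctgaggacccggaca
MRPS34: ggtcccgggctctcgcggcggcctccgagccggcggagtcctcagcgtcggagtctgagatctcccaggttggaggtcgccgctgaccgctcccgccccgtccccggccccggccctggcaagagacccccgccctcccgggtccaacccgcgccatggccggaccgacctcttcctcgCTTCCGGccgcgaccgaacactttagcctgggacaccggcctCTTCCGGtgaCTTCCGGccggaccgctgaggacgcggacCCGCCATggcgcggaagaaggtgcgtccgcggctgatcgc
MRPS10: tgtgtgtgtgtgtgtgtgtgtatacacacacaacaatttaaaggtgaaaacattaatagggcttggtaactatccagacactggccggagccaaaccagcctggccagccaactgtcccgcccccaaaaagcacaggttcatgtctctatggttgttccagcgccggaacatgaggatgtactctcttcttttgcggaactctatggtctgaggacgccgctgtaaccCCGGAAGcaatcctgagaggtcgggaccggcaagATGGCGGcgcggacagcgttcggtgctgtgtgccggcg
MRPL27 holds ETS cores at positions 199 and 243 of the 300 bases. MRPS34 holds them at 180, 222 and 232, each as the reverse complement CTTCCGG, with a YY1 core as CCGCCAT at 261. MRPS10 holds 1 ETS core at 229 and 1 YY1 core at 263. The mean of MRPL27 and of MRPS34 was higher in shNME7 and that of MRPS10 lower. Over the tested members, the median difference was 0.24 in the 28 with an ETS core and 0.14 in the 39 without, and 0.18 and 0.14 with the GC and length trend removed, differences that were not tested. For the YY1 core it was 0.11 in 22 members with it and 0.22 in 45 without, and 0.12 and 0.17 with the trend removed, likewise not tested.

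Many large subunit genes also share their start with a gene on the opposite strand. Within 1000 bases and head to head with another protein-coding gene lay 3 of 29 small and 15 of 49 large subunit genes, 23.1% of the members together, against 8.18% of all protein-coding genes and 11.9% of the tested ones. MRPL46 and MRPS11 form a pair across the subunits, with starts 34 bases apart. MRPS11 had 7.42 and 8.91 FPKM in shNME7, against 7.55 and 7.05 FPKM in shCtrl, and MRPL46 had the levels given above. Both were thus highest in shNME7 2 and lowest in shCtrl 2. Of the 76 tested members, 50 were highest in shNME7 2 and 47 lowest in shCtrl 2, so such a match is common among them. MRPL27 starts 6 bases from EME1, a subunit of a DNA repair nuclease, which had 13.2 and 11.0 FPKM in shNME7 and 10.3 and 11.5 FPKM in shCtrl. EME1's groups overlapped while those of MRPL27 did not. MRPL36 faces NDUFS6, a subunit of respiratory complex I, at 34 bases. NDUFS6 had 74.2 and 114 FPKM in shNME7 1 and 2 and 77.5 and 51.9 FPKM in shCtrl 1 and 2. The order of libraries was the same in MRPL36, which had 39.6 and 51.2 FPKM in shNME7, against 41.8 and 34.3 FPKM in shCtrl. Exons of MRPL36 are 60.9% G and C, and 2482 of the 3554 tested genes at 55% or more were highest in shNME7 2. Over the 15 members whose partner was tested too, the partners' median difference was 0.056, with 10 of 15 higher in shNME7. Of all tested genes 52.2% had the higher mean there. MRPL46 and MRPS11 each count in this as a member and as a partner. MRPL36, MRPS11 and their partners were chosen for this arrangement and not by size of change.

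Other parts of mitochondrial translation were read from lists of textbook genes, in none of which a gene passed limma-trend or limma-voom. The 5 subunits whose names escape the rule are DAP3, AURKAIP1, CHCHD1, PTCD3 and GADD45GIP1. Their median difference was 0.34, with 4 of 5 means higher in shNME7, against 52.2% of all tested genes. None was free of overlap between groups. Of all tested genes, 17.8% had both shNME7 values above both shCtrl values and 18.4% had both below. With the GC and length trend removed, the median of the 5 was 0.18, with 5 of 5 means higher. Both shNME7 values then exceeded both shCtrl values in 1 of 5, against 26.6% of all tested genes. GADD45GIP1 had 68.03 and 99.7 FPKM in shNME7 1 and 2, against 80.8 and 52.01 FPKM in shCtrl 1 and 2, and DAP3, a GTP-binding small subunit protein, had 48.6 and 43.1 FPKM in shNME7 1 and 2, against 45.4 and 48.3 FPKM in shCtrl 1 and 2. The ribosome's rRNAs, transcribed from mitochondrial DNA, differed more between the shNME7 replicates than between the group means. MT-RNR1, of the small subunit, had 3583 and 1660 FPKM in shNME7 1 and 2, against 3162 and 4792 FPKM in shCtrl 1 and 2, and MT-RNR2, of the large subunit, had 15321 and 9172 FPKM in shNME7 1 and 2, against 10302 and 11619 FPKM in shCtrl 1 and 2. In both, shNME7 2 was the lowest library, where most subunit mRNAs were highest.

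Of 18 translation factors 11 had the higher mean in shNME7, with a median of 0.080. TSFM, the exchange factor for the mitochondrial elongation factor, had 13.9 and 13.7 FPKM in shNME7 1 and 2, against 10.3 and 12.2 FPKM in shCtrl 1 and 2, without overlap, and LETM1 had 11.4 and 15.1 FPKM in shNME7, against 11.6 and 11.1 FPKM in shCtrl. C12orf65, a ribosome rescue factor, had 5.499 and 4.58 FPKM in shNME7, against 6.28 and 5.903 FPKM in shCtrl, with shNME7 lower in both libraries than either control, and the initiation factor MTIF2 had 24.9 and 17.7 FPKM in shNME7, against 22.5 and 25.3 FPKM in shCtrl. The 27 assembly factors had 17 higher means and a median of 0.059. MPV17L2 had 15.1 and 23.03 FPKM in shNME7, against 15.5 and 12.4 FPKM in shCtrl. MALSU1, which keeps the subunits apart during assembly, had 9.76 and 13.5 FPKM in shNME7, against 8.88 and 8.28 FPKM in shCtrl. Both shNME7 libraries exceeded both controls in MALSU1 but not in MPV17L2. The rRNA methyltransferase NSUN4 had 4.71 and 4.54 FPKM in shNME7, against 5.66 and 5.35 FPKM in shCtrl. TRMT2B, a methyltransferase of mitochondrial RNA, had 7.66 and 7.52 FPKM in shNME7, against 8.66 and 8.68 FPKM in shCtrl. In both of these the shNME7 libraries were the lower pair. The members of both lists thus split in direction, with medians nearer to that of all tested genes than the ribosomal proteins had. With the GC and length trend removed, the medians were 0.079 for translation factors and 0.049 for assembly factors. Both shNME7 values then exceeded both shCtrl values in 9 of 18 translation and 6 of 27 assembly factors. This held for 31 of 76 subunit genes and 26.6% of all tested genes. The reverse held for 1 translation factor (5.56%) and 6 assembly factors (22.2%), against 20.6% of all tested genes.

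In the list for mitochondrial transcription and mRNA handling, 10 of 14 tested genes had the higher mean, with a median of 0.060. SLIRP and LRPPRC, which form a complex that stabilises mitochondrial mRNAs, had means on opposite sides. SLIRP had 16.1 and 23.2 FPKM in shNME7 1 and 2, against 15.8 and 11.1 FPKM in shCtrl 1 and 2, without overlap, and LRPPRC had 36.8 and 30.9 FPKM in shNME7 1 and 2, against 36.4 and 41.2 FPKM in shCtrl 1 and 2, with overlap. HSD17B10, a subunit of mitochondrial RNase P, had 115 and 152 FPKM in shNME7, against 122 and 91.9 FPKM in shCtrl, and TFAM, which packs mitochondrial DNA and starts its transcription, had 18.4 and 15.1 FPKM in shNME7, against 19.1 and 20.6 FPKM in shCtrl, both shNME7 libraries below both controls.

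The regulators of nuclear genes for mitochondrial proteins had 7 of 9 means lower in shNME7 and a median of -0.091. For GABPA, GABPB1, YY1 and PPARGC1A, 4 of the 9, both shNME7 values lay under both shCtrl values, against 18.4% of all tested genes. All of these but YY1 have exons under 45% GC content, where this held for 1285 of 4862 tested genes. With the GC and length trend removed, the median was -0.079, and 4 of 9 had both shNME7 values under both shCtrl values, against 20.6% of all tested genes. The differences were then -0.13 for GABPA, -0.033 for GABPB1, -0.10 for YY1 and -0.34 for PPARGC1A, against -0.25, -0.15, -0.15 and -0.49 before. GABPA, the DNA-binding part of GABP, had 9.13 and 6.86 FPKM in shNME7 1 and 2, against 9.17 and 10.1 FPKM in shCtrl 1 and 2, and YY1 had 24.4 and 25.1 FPKM in shNME7 1 and 2, against 27.6 and 27.7 FPKM in shCtrl 1 and 2. PPARGC1A, a coactivator that drives mitochondrial biogenesis, had 1.44 and 1.34 FPKM in shNME7 1 and 2, against 2.21 and 2.498 FPKM in shCtrl 1 and 2, the widest gap of the list and close to the minimum level. ESRRA, a nuclear receptor that works with it, had 36.1 and 55.6 FPKM in shNME7 1 and 2, against 44.3 and 30.4 FPKM in shCtrl 1 and 2, with the groups overlapping. GABPB1 and PPARGC1A were named after their values were seen. NRF1, given for its motif above, had 4.29 and 5.595 FPKM in shNME7, against 5.77 and 4.84 FPKM in shCtrl. MYC, given likewise, had 235 and 232 FPKM in shNME7, against 265 and 232 FPKM in shCtrl. The groups overlapped in both. No gene of the list passed limma-trend, and these lists were drawn up with earlier results of these data known.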

How the data were processed

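Per the file headers the deposited values are FPKM, in 1 table per library of 58735 genes. The submitters' processing notes list HISAT2 2.0.5 and hg18, and of the counting tool and annotation nothing is said in the sources used here. Every gene ID was found in GENCODE release 29, which annotates GRCh38 and gave names, coordinates, exon lengths and GC content of the union of exons. FPKM times exon length gave whole multiples of 1 step per library (100% of genes above 0, within 0.01), which recovered the fragments. The steps implied library sizes of 1.50291e+07 and 1.69844e+07 in shNME7 1 and 2 and 1.59126e+07 and 1.61295e+07 in shCtrl 1 and 2. These differ from the recovered totals. They match the geometric mean of those totals times a size factor per library, the median ratio of its genes to their geometric mean over libraries.

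The main test took genes averaging 1 FPKM or more and used limma-trend (limma 3.58.1, R 4.3.3) on log2(FPKM + 1), group as the only term, p two-sided and Benjamini-Hochberg adjusted over 12866 genes, threshold 0.05. Limma-voom was run on recovered fragments (mean of at least 10). The GC and length trend was a loess curve (span 0.3) per library over 12857 genes with a GC value. Figures and tables were made with Python 3.11.15, pandas 2.3.3 and matplotlib 3.10.9.

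The members, the lists and the tests were chosen with earlier results of these data known. Named are, per subunit, the 5 largest positive and 3 largest negative differences at a mean of at least 5 FPKM, the 3 most and 3 least abundant tested members, every member called with all 4 libraries, and 9 members for their roles. From the other lists came the 2 extremes in each direction at the same mean, both rRNAs and the subunits outside the rule. Alternatives were another pseudocount (0.1), no filter, TPM scaling, a replicate block, each library left out and MRPS18A with MRPS30 counted as large subunit.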

Additional observations from a re-analysis of the deposited data

How the results depend on the processing

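The medians of both subunits stayed positive under every alternative run, between 0.069 and 0.20 for the small and between 0.056 and 0.32 for the large subunit. Scaling to TPM gave the small subunit a median of 0.091 and 6 members with both shNME7 libraries above both shCtrl libraries, in place of 10. The count of genes called by limma-trend was 0, against 16 by limma-voom, 11 by limma-voom after removal of the GC and length trend and 122 with a replicate block, with no member among any of them. The replicate block called 0 genes once the GC and length trend was removed. No label ties a replicate number to a shared culture, and the deviations of same-numbered libraries correlated at -0.35, one value for both numbers by construction with 2 libraries a group. A block on the crossed pairing, chosen after seeing the data, called 0 genes. Leaving out 1 library moved the genes called to between 112 and 632, the small subunit's median to between 0.10 and 0.17, the small minus large difference to between -0.20 and -0.00048, and the non-overlapping members to between 12 and 18 of 28 small and between 18 and 40 of 48 large, against 28.3% to 41.1% of all tested genes. The GC and length trend was then removed with 1 library left out, also chosen after seeing the data. In these fits the medians lay between 0.069 and 0.20 for the small and at 0.056 at the lowest for the large subunit. Without shNME7 1, 21 of 28 small and 39 of 48 large members did not overlap with shNME7 higher, against 44.9% of all tested genes. Without shCtrl 1 these counts were 23 and 36, against 42.9% of all tested genes. They were 15 and 20 without shNME7 2, against 39.0%, and 14 and 25 without shCtrl 2, against 36.9%. The small minus large difference reversed to 0.013 without shNME7 2 and 0.0047 without shCtrl 2, so subunit order depends on the libraries kept. GC content of the longest transcript in place of the exons, likewise added, made that difference -0.018.

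Direction turned for 7 named members with differences near 0. With 1 library left out, MRPS35 ranged between -0.19 and 0.11 (0.029 without shCtrl 2), MRPL45 between -0.23 and 0.074 and MRPL15 between -0.042 and 0.19. MRPS33 ranged between -0.083 and 0.14 (-0.00057 without shCtrl 1) and gave -0.012 in TPM. MRPL1 ranged between -0.15 and 0.10 (0.095 without shCtrl 2) and gave 0.014 in limma-voom with the trend removed. MRPL58 ranged between -0.10 and 0.26 (-0.065 without shCtrl 2) and gave -0.011 with the trend removed, with or without a replicate block, and -0.025 in limma-voom with the trend removed. MRPS30 ranged between -0.081 and 0.033 and gave 0.10 with the trend removed, with or without a replicate block, and 0.13 in limma-voom with the trend removed. The cause was not tested. With 2 libraries per group, their spread limits the precision of every difference.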
